A study of Saccharomyces cerevisiae with 24 samples.

Results

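The response of a yeast mutant in phosphatidylserine decarboxylase 1 (Psd1) to medium with a detergent and lyso-phosphatidylethanolamine (lyso-PE) was examined in 6 of the 24 RNA-seq libraries of the study. All 6 libraries came from Saccharomyces cerevisiae of the GA74-1A background that lacks the chromosomal PSD1 and PSD2 genes and carries Psd1-LGS/AAA, in which the LGS motif is replaced by 3 alanines. Per the labels this protein does not cut itself and leaves the strain dependent on ethanolamine. The LGL libraries (replicates 1 to 3) came from cultures in YPD with 1% tergitol, a detergent, and 0.5 mM lyso-PE, and the LGD libraries (replicates 1 to 3) from cultures in plain YPD, all taken at an OD600 of 0.5 to 0.7. The study also holds a control strain, WT, with the same 2 deletions and a functional Psd1-3XFLAG, in the same 2 media (WTL and WTD), and both strains in YPD with 2 mM ethanolamine or 2 mM choline, of which the mutant groups LGE and LGC are used below. No group had tergitol without lyso-PE, so the detergent and the lipid cannot be told apart.

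Phosphatidylethanolamine (PE) is a cone-shaped phospholipid that mitochondria make from phosphatidylserine with Psd1. Psd1 matures by cutting itself at the LGS motif, which leaves the catalytic group on the smaller piece. Yeast can also make PE in the endoplasmic reticulum (ER), either from ethanolamine by the Kennedy pathway or from lyso-PE, which flippases of the plasma membrane bring in and the acyltransferase Ale1 acylates.

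The motif that differs between the strains is shown because it defines the mutant. It is the reference sequence of PSD1 on the R64 genome (RefSeq), chrXIV:316253-316321, minus strand, with the codons of Leu, Gly and Ser at residues 461 to 463 of 500 in capitals.
PSD1: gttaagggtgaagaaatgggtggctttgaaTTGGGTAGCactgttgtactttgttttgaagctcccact
PSD1 (YNL169C, chromosome XIV, 316169-317671, overlapped by YNL170W on the opposite strand) had 473, 483 and 709 CPM in LGD and 479, 500.2 and 647 CPM in LGL, where CPM is the count scaled to the library size after TMM adjustment. The ranges of the media overlapped and the gene was not called (log2 fold change -0.03 ± 0.22, adjusted p 0.928). Counts per gene do not show which allele was read, and PSD2 was not analysed here.

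Library totals ran from 17217471 to 20946936 counts. The 3 libraries of a group were not equally spaced. Replicates 1 and 2 nearly coincided, with Pearson correlations of log2 CPM across genes of 0.995 in LGD and 0.991 in LGL. LGD replicate 3 correlated with its own group at 0.969 and 0.969 and with LGL replicates 1 to 3 at 0.970, 0.968 and 0.975. LGL replicate 3 correlated with LGL replicates 1 and 2 at 0.969 and 0.972. On the first principal component, which held 61.8% of the variance, the LGD libraries stood at -33.7, -33.8 and -1.40 and the LGL libraries at 26.5, 28.4 and 13.9. The markers of an a-type haploid cell summed to 4074, 3936 and 2645 CPM in LGD and 2205, 2181 and 1429 CPM in LGL, over 7 genes. Those of the alpha type summed to 70.4 to 161 CPM over 4 genes, and those of meiotic cells to 94.4 to 118 CPM over 4 genes. The alpha pheromone gene MF(ALPHA)1 lay between 0.286 and 1.81 CPM. The labels do not give the mating type.

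Of 6202 genes tested with edgeR's quasi-likelihood test and Benjamini-Hochberg adjustment, 822 (13.3%) were called at an adjusted p under 0.05. Of these, 361 (5.82%) were higher and 461 (7.43%) lower in LGL, and the median log2 fold change over all genes tested was 0.01. These shares over all genes are the ones to set beside each count of called list members below. The call counts changed with the libraries used. With replicates 1 and 2 summed, 0 genes were called by edgeR (729 at an unadjusted p under 0.05), without LGL replicate 1 or without LGL replicate 2 the count was 1, and without LGD replicate 3 it was 2064. The direction of the fold change was kept by 822 of the 822 genes in each of these fits. This is no support for the calls, because the CPM of the groups did not overlap in 822 of the 822. Leaving out or summing libraries could therefore hardly reverse a direction. Over all 6202 genes tested, 2247 (36.2%) had groups that did not overlap. Separate groups, where mentioned below for a called gene, are thus common to all called genes. In 627 of the 822 genes LGD replicate 3 lay between the other LGD libraries and the LGL libraries. The median difference over the called genes was 1.02 on the log2 scale between replicates 1 and 2 of the media and 0.55 between their replicates 3.

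The gene that held its call in each of the 6 fits without 1 library was ATG17 (YLR423C, chromosome XII, 971917-973170), which encodes a scaffold protein of autophagy. It had 60.7, 60.9 and 66.5 CPM in LGD and 15.5, 15.5 and 15.5 CPM in LGL (log2 fold change -2.01 ± 0.12, adjusted p 0.00187). The 3 LGL libraries were nearly equal and lay far below every LGD library. With replicates 1 and 2 summed its adjusted p was 0.163.

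Among the 12 largest rises were genes of respiration, glycogen and stress. CYC7 (YEL039C, chromosome V, 79636-79977), the isoform of cytochrome c made in low oxygen, had 10.6, 9.38 and 44.9 CPM in LGD and 234, 221 and 88.2 CPM in LGL (log2 fold change 3.06 ± 0.69, adjusted p 0.0336). COX26, a small subunit of cytochrome c oxidase, had 2.30, 2.36 and 12.6 CPM in LGD and 42.7, 31.1 and 26.3 CPM in LGL (log2 fold change 2.54 ± 0.65, adjusted p 0.0436). In both genes LGD replicate 3 was well above the other LGD libraries and LGL replicate 3 was the lowest of its group. GLG1 (YKR058W, chromosome XI, 552770-554620), a glycogenin that primes glycogen synthesis, had 22.6, 22.9 and 58.7 CPM in LGD and 175, 195 and 116 CPM in LGL (log2 fold change 2.22 ± 0.41, adjusted p 0.0240). IGD1, an inhibitor of glycogen debranching, had 32.6, 32.3 and 127 CPM in LGD and 421, 436 and 183 CPM in LGL (log2 fold change 2.44 ± 0.61, adjusted p 0.0424). The groups did not overlap in either gene, and the gap between the libraries of replicate 3 was the smaller one.

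The other rises had log2 fold changes from 2.22 to 2.61. TSA2, a cytosolic peroxiredoxin, had 34.4, 29.8 and 51.9 CPM in LGD and 252, 239.7 and 84.1 CPM in LGL (log2 fold change 2.31 ± 0.43, adjusted p 0.0241). OM45, a protein of the mitochondrial outer membrane, had 37.0, 36.9 and 80.7 CPM in LGD and 325, 289.8 and 118 CPM in LGL (log2 fold change 2.24 ± 0.46, adjusted p 0.0293). SDP1, a phosphatase that acts on the cell wall kinase Slt2, had 11.6, 13.8 and 19.3 CPM in LGD and 72.6, 95.3 and 39.6 CPM in LGL (log2 fold change 2.22 ± 0.34, adjusted p 0.0171). All LGL libraries stood above all LGD libraries in these genes, which the rule for naming the 12 rises required. The zinc-finger regulator USV1 (2.33), the vacuolar transporter gene RTC2 (2.25), UIP4 (2.61, overlapped by YPL185W), HAB1 (2.22) and YJR115W (2.36) completed the 12. LGD replicate 3 was above the other LGD libraries in 12 of 12 and LGL replicate 3 below the other LGL libraries in 12 of 12, so the spacing of these genes followed that of the libraries.

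The 12 largest falls held cell surface, membrane and mating genes. YBR200W-A (YBR200W-A, chromosome II, 622983-623147), a short open reading frame, had 6.01, 4.42 and 8.95 CPM in LGD and 0.197, 0.515 and 0.468 CPM in LGL (log2 fold change -4.03 ± 0.45, adjusted p 0.00845), from 120, 88 and 170 counts in LGD and 4, 9 and 10 counts in LGL. EXG1 (YLR300W, chromosome XII, 728955-730301), the main exo-1,3-beta-glucanase of the cell wall, had 1653, 1669 and 896 CPM in LGD and 299, 289 and 232 CPM in LGL (log2 fold change -2.36 ± 0.28, adjusted p 0.00867). Both groups were well apart in these genes. MCD4 (YKL165C, chromosome XI, 137932-140691), which transfers phosphoethanolamine from PE to the glycosylphosphatidylinositol (GPI) anchor, had 529.7, 552 and 506 CPM in LGD and 82.7, 77.5 and 182 CPM in LGL (log2 fold change -2.21 ± 0.34, adjusted p 0.0171). Its LGL replicate 3 was well above the other LGL libraries and still far under every LGD library. KDX1 (YKL161C, chromosome XI, 149386-150687), a kinase gene switched on by the cell wall integrity pathway, had 133, 128 and 96.5 CPM in LGD and 35.1, 27.5 and 25.4 CPM in LGL (log2 fold change -2.02 ± 0.19, adjusted p 0.00561). ULI1, a gene named for its induction by the unfolded protein response, had 39.0, 41.8 and 92.8 CPM in LGD and 12.5, 10.2 and 14.97 CPM in LGL (log2 fold change -2.20 ± 0.36, adjusted p 0.0198), and LGD replicate 3 was the highest of the 6. HXT1, a low-affinity glucose transporter, had 606, 593 and 197 CPM in LGD and 97.8, 103 and 123 CPM in LGL (log2 fold change -2.11 ± 0.41, adjusted p 0.0255). The reads of HXT1 can be shared among similar transporter genes, as can those of the Ty2 element YBL100W-B (-2.36), and their values are uncertain for that reason. The remaining falls were the mating genes FIG1 (-2.54) and AGA1 (-2.10), the regulator SFG1 (-2.11) and the drug exporter AQR1 (-2.08). LGD replicate 3 lay below the other LGD libraries in 8 of the 12. All 24 rises and falls had an adjusted p of at most 0.0245 when the 24 libraries of the study were fitted together, and from 0.163 to 0.372 with replicates 1 and 2 summed. The fit of 24 libraries compares the same 6 LGL and LGD libraries from which these genes were chosen. It is therefore not independent support for them.

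**Figure D1:**
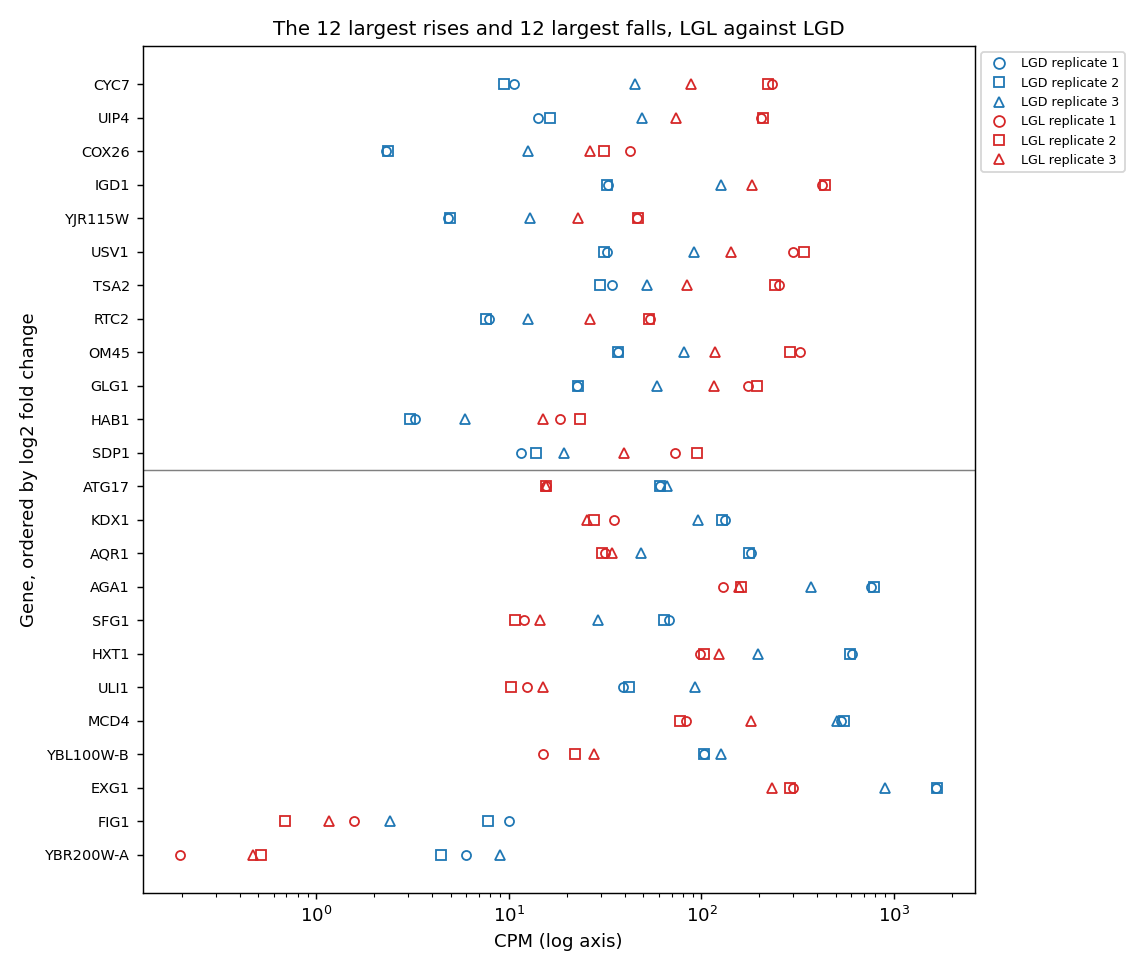
CPM (log axis) in each of the 6 libraries for the 12 largest rises and the 12 largest falls, ordered by log2 fold change; blue is LGD, red is LGL, and the symbol gives the replicate. In CYC7 the triangles of replicate 3 (44.9 and 88.2 CPM) lie between the circles and squares, whereas the 3 LGL libraries of ATG17 coincide at 15.5 CPM.

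Of the 22 genes tested in the lists for the CDP-DAG route, the Kennedy pathway and inositol, 8 fell and 1 rose. In the CDP-DAG route, which makes phosphatidylserine, PE and phosphatidylcholine from CDP-diacylglycerol, 3 of 7 genes were called, all lower, with a median log2 fold change of -0.68 over the 7. CHO2, the PE methyltransferase, had 465, 490.2 and 549.8 CPM in LGD and 242, 231 and 269 CPM in LGL (log2 fold change -1.02 ± 0.15, adjusted p 0.0159). CHO1, the phosphatidylserine synthase, had 302, 295 and 283 CPM in LGD and 193, 149.6 and 123 CPM in LGL (log2 fold change -0.92 ± 0.18, adjusted p 0.0273). CDS1, the CDP-diacylglycerol synthase, had 174, 178 and 169.7 CPM in LGD and 100, 99.7 and 126 CPM in LGL (log2 fold change -0.68 ± 0.14, adjusted p 0.0295). The groups were separate in all 3, and LGL replicate 3 was the lowest library of the 6 only in CHO1. OPI3, which completes the methylation to phosphatidylcholine, changed by -0.86 ± 0.30 without a call (adjusted p 0.0889), with 298, 285 and 481 CPM in LGD and 238, 219 and 128 CPM in LGL. The phosphatidylinositol synthase gene PIS1 (-0.03 ± 0.20) and TAM41 (-0.03 ± 0.14), the CDP-diacylglycerol synthase of mitochondria, were not called.

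The inositol list had 2 of 8 genes called (25.0%, against 13.3% over all genes), both lower, with a median of -0.18. INO1 (YJL153C, chromosome X, 134332-135933), the inositol-3-phosphate synthase, had 86.3, 88.5 and 137 CPM in LGD and 27.1, 24.8 and 32.3 CPM in LGL (log2 fold change -1.89 ± 0.22, adjusted p 0.00845). ITR1, the main inositol transporter, had 515, 523 and 691 CPM in LGD and 257, 232 and 318 CPM in LGL (log2 fold change -1.10 ± 0.19, adjusted p 0.0220). In both genes LGD replicate 3 was the highest library, on the side away from LGL. The regulator gene INO2 (-0.28 ± 0.48) spread widely in LGL, with 14.6, 14.3 and 51.9 CPM, and like INO4 (0.13 ± 0.34), OPI1 (0.46 ± 0.24), SCS2 (0.22 ± 0.13), ITR2 (-0.11 ± 0.12) and INM1 (-0.25 ± 0.13) it was not called.

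In the Kennedy pathway 4 of 7 genes were called, 3 lower and 1 higher, with a median of -0.48. HNM1 (YGL077C, chromosome VII, 362225-363916), the transporter of choline and ethanolamine, had 210.0, 198 and 196 CPM in LGD and 91.1, 84.1 and 96.7 CPM in LGL (log2 fold change -1.15 ± 0.12, adjusted p 0.00812). EPT1, the ethanolamine phosphotransferase, had 114, 109.7 and 103 CPM in LGD and 45.9, 50.5 and 82.5 CPM in LGL (log2 fold change -0.87 ± 0.23, adjusted p 0.0473), and CPT1, the choline phosphotransferase, had 151, 158 and 175 CPM in LGD and 106, 93.5 and 117 CPM in LGL (log2 fold change -0.62 ± 0.14, adjusted p 0.0348). The 3 LGL libraries lay below the 3 LGD libraries in each of these genes, and LGL replicate 3 was the nearest to LGD. PCT1, the rate-limiting enzyme of the choline branch, rose, with 66.8, 64.3 and 92.3 CPM in LGD against 113, 111 and 122 CPM in LGL (log2 fold change 0.63 ± 0.17, adjusted p 0.0483). ECT1, its counterpart in the ethanolamine branch, changed by 0.11 ± 0.13, the ethanolamine kinase EKI1 by -0.48 ± 0.19 and the choline kinase CKI1 by 0.01 ± 0.31, none of them called.

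Genes of this kind are known to carry an inositol-sensitive element, UAS-INO, whose core CATGTG is bound by Ino2 and Ino4. The sequences before the start codons of INO1, HNM1 and CHO1 are shown because these genes fell together; they are from R64, 5′ to 3′ on the coding strand, with CATGTG or its complement CACATG in capitals. INO1 is at chrX:136066-136216, minus strand, HNM1 at chrVII:364138-364216, minus strand, and CHO1 at chrV:208588-208673, minus strand.
INO1: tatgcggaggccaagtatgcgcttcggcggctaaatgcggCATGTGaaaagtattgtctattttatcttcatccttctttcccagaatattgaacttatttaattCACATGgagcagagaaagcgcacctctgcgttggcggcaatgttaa
HNM1: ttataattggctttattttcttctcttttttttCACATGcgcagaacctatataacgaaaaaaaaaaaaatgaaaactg
CHO1: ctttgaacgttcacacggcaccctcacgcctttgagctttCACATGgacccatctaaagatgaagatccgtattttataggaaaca
The matches begin 243 and 178 bases before the INO1 start codon, 267 bases before that of HNM1 and 159 bases before that of CHO1. Counted on both strands in the 300 bases before the start codon, CATGTG was found in 13 of the 22 genes of the 3 lists and in 7.22% of all 6023 windows. The share was 8.8% among genes called lower and 5.28% among genes called higher. A match is a description of letters and not of binding.

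Of 12 genes for the uptake and acylation of lyso-PE, 1 was called, and the median was -0.13. It was KIN82 (YCR091W, chromosome III, 274404-276566), a kinase that activates lipid flippases, with 13.6, 17.1 and 50.9 CPM in LGD against 103, 104 and 95.4 CPM in LGL (log2 fold change 1.89 ± 0.47, adjusted p 0.0413). LGD replicate 3 was well above the other LGD libraries and still below all LGL libraries. The related kinase gene FPK1 had 48.1, 49.2 and 86.7 CPM in LGD and 53.5, 56.0 and 104 CPM in LGL and was not called (log2 fold change 0.21 ± 0.33, adjusted p 0.676); its libraries of replicate 3 were the highest in both media. The flippase genes DNF1 (-0.04 ± 0.13) and DNF2 (-0.30 ± 0.15), which overlap other genes, and the flippase subunit LEM3 (-0.30 ± 0.12) were not called. ALE1, the acyltransferase of lyso-PE, had 176, 190.4 and 206 CPM in LGD and 206, 215 and 189.5 CPM in LGL, with overlapping ranges (log2 fold change 0.09 ± 0.13, adjusted p 0.644). The acyltransferase genes SLC1 (-0.23 ± 0.17) and LOA1 (0.02 ± 0.13) and the phospholipase genes PLB1 (-0.51 ± 0.20), PLB2 (0.19 ± 0.12), PLB3 (-0.77 ± 0.26) and NTE1 (-0.43 ± 0.21) were not called either. Without LGD replicate 3, 5 of the 12 were called, 1 higher and 4 lower, but that fit called 2064 of all 6226 genes tested.

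Reactions that consume PE as a donor had 4 of 11 genes called, 3 lower and 1 higher. The 3 that fell act on the GPI anchor. Beside MCD4, the gene LAS21, whose product adds phosphoethanolamine to another mannose of the anchor, had 130.1, 137 and 125 CPM in LGD and 73.0, 67.2 and 96.0 CPM in LGL (log2 fold change -0.73 ± 0.16, adjusted p 0.0330), and GPI11, needed for a later addition, had 49.3, 49.8 and 38.7 CPM in LGD and 24.7, 31.3 and 31.6 CPM in LGL (log2 fold change -0.65 ± 0.16, adjusted p 0.0414). ATG12, which encodes a ubiquitin-like protein needed to couple Atg8 to PE, rose, with 8.47, 8.48 and 7.42 CPM in LGD against 12.4, 19.5 and 13.8 CPM in LGL (log2 fold change 0.91 ± 0.22, adjusted p 0.0379). In each of these genes the ranges of the groups were separate, as in every called gene.

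Of 22 genes of ER protein folding and the unfolded protein response, 6 were called, all lower, and 20 had a negative fold change, with a median of -0.57. FPR2 (YDR519W, chromosome IV, 1480425-1480832), a prolyl isomerase of the ER, had 345, 342 and 337 CPM in LGD and 150.0, 146 and 149 CPM in LGL (log2 fold change -1.20 ± 0.12, adjusted p 0.00561). The libraries within each medium were within a few percent of each other, replicate 3 included. EUG1, a protein disulfide isomerase, had 125, 132 and 154 CPM in LGD and 54.7, 59.6 and 70.2 CPM in LGL (log2 fold change -1.16 ± 0.15, adjusted p 0.0129). LHS1, a chaperone of the ER lumen, had 199, 197 and 236 CPM in LGD and 80.9, 88.9 and 127 CPM in LGL (log2 fold change -1.09 ± 0.20, adjusted p 0.0229). HAC1, the transcription factor of the response, had 1028, 1062 and 1343 CPM in LGD and 676, 587 and 737 CPM in LGL (log2 fold change -0.78 ± 0.18, adjusted p 0.0379) and is overlapped by YFL031C-A and YFL032W. In these genes LGD replicate 3 was, unlike in the rises above, the LGD library farthest from LGL or level with the others. The list as a whole stood at -0.07, -0.05 and 0.12 in LGD and at -0.80, -0.78 and -0.34 in LGL, as mean log2 level relative to the LGD mean. In ER-associated degradation 1 of 18 genes was called, the channel gene DER1, with 35.1, 34.5 and 42.0 CPM in LGD against 22.1, 23.4 and 27.5 CPM in LGL (log2 fold change -0.61 ± 0.15, adjusted p 0.0404). The unfolded-protein element core CAGCGTG was found before 2 of the 22 genes and in 1.3% of all windows. Among genes called lower the share was 2.03%, and among genes called higher 0.0%.

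Among 30 genes of the cell wall integrity pathway 9 were called, 8 lower and 1 higher, with a median of -0.25. CHS3, the main chitin synthase, had 395, 411 and 209 CPM in LGD and 102, 104 and 120.2 CPM in LGL (log2 fold change -1.64 ± 0.26, adjusted p 0.0191). CRH1, which links chitin to glucan, had 1458, 1474 and 1073 CPM in LGD and 543, 599 and 734 CPM in LGL (log2 fold change -1.09 ± 0.21, adjusted p 0.0246). GSC2, a glucan synthase subunit made under stress, had 1002, 1018 and 2153 CPM in LGD and 531, 503 and 638 CPM in LGL (log2 fold change -1.32 ± 0.33, adjusted p 0.0413). LGD replicate 3 was low among the LGD libraries for CHS3 and CRH1 and the highest of all for GSC2, and the groups were separate in each. The list mean was -0.01, 0.00 and 0.01 in LGD and -0.41, -0.37 and -0.24 in LGL.

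Of 15 fatty acid genes 4 were called, all lower, with a median of -0.30. OLE1 (YGL055W, chromosome VII, 398628-400160), the only fatty acid desaturase of this yeast, had 2146, 2123 and 1570.0 CPM in LGD and 851, 804 and 938 CPM in LGL (log2 fold change -1.17 ± 0.19, adjusted p 0.0198). ELO3, an elongase, had 646, 633 and 341 CPM in LGD and 241, 213 and 288 CPM in LGL (log2 fold change -1.13 ± 0.27, adjusted p 0.0381), and FAS1, a subunit of fatty acid synthase, had 2178, 2261 and 1772 CPM in LGD and 1248, 1135 and 974 CPM in LGL (log2 fold change -0.89 ± 0.19, adjusted p 0.0298). For ELO3 the gap between LGD replicate 3 and LGL replicate 3 was small. Of 26 ergosterol genes 8 were called, all lower, with a median of -0.40. ERG5, the C-22 desaturase, had 229.9, 229 and 166 CPM in LGD and 62.9, 66.1 and 89.3 CPM in LGL (log2 fold change -1.52 ± 0.20, adjusted p 0.0129). ERG11, the lanosterol demethylase, had 1104, 1125 and 723 CPM in LGD and 465, 450.4 and 382 CPM in LGL (log2 fold change -1.19 ± 0.22, adjusted p 0.0229). ERG3, the C-5 desaturase, had 876, 890.3 and 505 CPM in LGD and 322, 315 and 330.4 CPM in LGL (log2 fold change -1.23 ± 0.24, adjusted p 0.0255), and ERG1, the squalene epoxidase, changed by -1.09 ± 0.18. LGD replicate 3 was the lowest LGD library in these 4 genes, and every LGD library was above every LGL library. Without LGD replicate 3 the called members were 9 of 15 for fatty acids, all lower, and 17 of 26 for ergosterol, 15 lower and 2 higher. Over all genes that fit called 1068 lower and 996 higher of 6226 tested.

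The shares called in the neutral lipid list (14.3%) and the cardiolipin list (15.4%) were close to the 13.3% over all genes, and that of the sphingolipid list was 8.33%. In the sphingolipid list the called genes were 2 of 24, AUR1 for inositolphosphorylceramide synthase (-0.63 ± 0.17) and the ceramidase gene YPC1 (0.74 ± 0.15). For neutral lipids they were 2 of 14, the lipase gene TGL4 (0.66 ± 0.13) and the lipid phosphatase gene LPP1 (-0.77 ± 0.17), with a median of 0.02 that was -0.02 after upper-quartile scaling. Beta-oxidation had 1 of 17 (5.88%), ECI1 for enoyl-CoA isomerase (1.14 ± 0.21). In the list of cardiolipin synthesis and lipid transfer 2 of 13 were called, both higher. UPS1, which carries phosphatidic acid across the intermembrane space, had 65.7, 60.0 and 60.1 CPM in LGD and 111, 119 and 84.2 CPM in LGL (log2 fold change 0.76 ± 0.16, adjusted p 0.0295). MDM34, a subunit of the tether between ER and mitochondria (overlapped by YGL218W), had 55.8, 55.8 and 74.7 CPM in LGD and 102, 125 and 102 CPM in LGL (log2 fold change 0.82 ± 0.17, adjusted p 0.0293).

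Of 39 nuclear genes of oxidative phosphorylation 12 were called, all higher, 36 had a positive fold change and the median was 0.54. QCR6 (YFR033C, chromosome VI, 224326-224769), a subunit of the cytochrome bc1 complex, had 79.5, 79.2 and 104 CPM in LGD and 211, 207 and 165 CPM in LGL (log2 fold change 1.15 ± 0.17, adjusted p 0.0171). QCR7 and QCR8, other subunits of that complex, had 143, 142 and 212 CPM in LGD against 346, 373 and 336 CPM in LGL (log2 fold change 1.09 ± 0.19, adjusted p 0.0220) and 105, 102 and 177 CPM in LGD against 253, 258 and 226 CPM in LGL (log2 fold change 0.94 ± 0.23, adjusted p 0.0404). In the 3 genes LGD replicate 3 was the highest LGD library and lay under all LGL libraries. For the list as a whole the mean log2 level relative to LGD was -0.11, -0.14 and 0.25 in LGD and 0.69, 0.62 and 0.33 in LGL, so the libraries of replicate 3 nearly met. In the TCA cycle 2 of 13 genes were called (15.4%, close to the 13.3% over all genes), both higher. They were the citrate synthase gene CIT1 with 399, 402 and 586 CPM in LGD against 1180.0, 1075 and 737 CPM in LGL (log2 fold change 1.11 ± 0.25, adjusted p 0.0339) and the malate dehydrogenase gene MDH1 with 153, 151 and 315 CPM in LGD against 622, 566 and 422 CPM in LGL (log2 fold change 1.38 ± 0.32, adjusted p 0.0369). Of the HAP regulators, which switch on respiratory genes, HAP2 (0.80 ± 0.13) and HAP5 (0.72 ± 0.18) rose among 7 (28.6%).

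The MICOS complex, which holds the cristae junctions of the inner membrane, had 3 of 6 genes called, all higher, and a median of 0.64. MIC60, its core subunit, had 57.3, 56.4 and 69.5 CPM in LGD and 115, 103 and 115 CPM in LGL (log2 fold change 0.87 ± 0.14, adjusted p 0.0176). MIC27 had 69.1, 66.4 and 83.6 CPM in LGD and 142, 139.7 and 96.6 CPM in LGL (log2 fold change 0.79 ± 0.19, adjusted p 0.0379), and MIC19 (overlapped by YFR010W-A) rose by 0.63 ± 0.14. All 6 members had positive fold changes. In mitochondrial protein import 1 of 38 genes was called, TOM5 of the outer membrane translocase, with 236, 233 and 224 CPM in LGD against 324, 370.1 and 313 CPM in LGL (log2 fold change 0.54 ± 0.13, adjusted p 0.0417). Among hypoxic and DAN/TIR genes 5 of 17 were called, all higher. Beside CYC7, the cell wall mannoprotein gene TIR1 had 27.5, 25.4 and 22.9 CPM in LGD and 70.1, 73.3 and 37.3 CPM in LGL (log2 fold change 1.25 ± 0.26, adjusted p 0.0293) and COX5B, the hypoxic isoform of a cytochrome c oxidase subunit, had 35.5, 31.8 and 60.7 CPM in LGD and 128, 123 and 68.9 CPM in LGL (log2 fold change 1.32 ± 0.32, adjusted p 0.0397). For COX5B the libraries of replicate 3 differed little, and for TIR1 LGD replicate 3 was the lowest of the 6. The related TIR4 had 33.4, 39.4 and 42.2 CPM in LGD and 62.9, 62.7 and 69.0 CPM in LGL (log2 fold change 0.76 ± 0.13, adjusted p 0.0217).

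Genes of the general stress response and of glycogen and trehalose had higher mean levels in LGL replicates 1 and 2 than in LGD replicates 1 and 2, while the libraries of replicate 3 were nearer to each other. Of 28 general stress genes 7 were called, all higher, with a median of 1.22, and of 16 glycogen and trehalose genes 7, all higher, with a median of 1.66. The general stress list stood at -0.42, -0.44 and 0.86 in LGD and at 1.66, 1.60 and 0.79 in LGL as mean log2 level relative to the LGD mean, and LGL replicate 3 was thus just below LGD replicate 3. CTT1, the cytosolic catalase, had 157, 151 and 352 CPM in LGD and 943, 907 and 567 CPM in LGL (log2 fold change 1.87 ± 0.38, adjusted p 0.0291). DCS2, a regulator of the decapping scavenger Dcs1, had 50.9, 46.3 and 151 CPM in LGD and 439, 409 and 192 CPM in LGL (log2 fold change 2.07 ± 0.53, adjusted p 0.0436). GPD1, the glycerol-3-phosphate dehydrogenase (overlapped by YDL023C), had 171, 169 and 244 CPM in LGD and 504, 464 and 352 CPM in LGL (log2 fold change 1.18 ± 0.22, adjusted p 0.0229). YGP1, a secreted glycoprotein, changed by 1.22 ± 0.30. The trehalose genes TPS2 and TSL1, for a phosphatase and a regulatory subunit of trehalose synthesis, had 432, 426 and 1009 CPM in LGD against 2465, 2432 and 1507 CPM in LGL (log2 fold change 1.78 ± 0.40, adjusted p 0.0330) and 736, 764 and 2013 CPM in LGD against 4176, 4359 and 2860.0 CPM in LGL (log2 fold change 1.70 ± 0.43, adjusted p 0.0425). GAC1, which directs a phosphatase to glycogen synthase, changed by 1.69 ± 0.43. In all of these genes LGD replicate 3 was above the other LGD libraries. Without LGD replicate 3, 23 of 28 general stress genes were called, 22 higher and 1 lower, and 16 of 16 glycogen and trehalose genes, all higher. Over all genes that fit called 996 higher and 1068 lower of 6226 tested.

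The stress response element AGGGG, bound by Msn2 and Msn4, was found in the 300 bases before the start codon of 30 of 44 genes in these 2 lists and in 22.4% of all windows. It was found before 42.8% of genes called higher and 9.93% of genes called lower. The stretch before CYC7 is shown because this gene had the largest rise (chrV:80125-80277, minus strand, R64; AGGGG in capitals).
CYC7: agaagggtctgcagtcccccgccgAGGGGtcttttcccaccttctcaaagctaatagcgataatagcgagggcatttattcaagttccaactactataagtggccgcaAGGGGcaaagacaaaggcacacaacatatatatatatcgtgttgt
Its 2 matches begin 276 and 192 bases before the start codon.

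Of 19 genes of hexose transport 4 were called (21.1%, against 13.3% over all genes), 3 higher and 1 lower. MTH1, a repressor of hexose transporter genes, had 35.4, 33.2 and 59.1 CPM in LGD and 169, 170.0 and 143 CPM in LGL (log2 fold change 1.91 ± 0.24, adjusted p 0.0108). MIG1, the glucose repressor, had 18.3, 20.3 and 35.3 CPM in LGD and 51.6, 58.5 and 72.1 CPM in LGL (log2 fold change 1.30 ± 0.27, adjusted p 0.0293), and HXT4, a high-affinity transporter, had 133, 134 and 351 CPM in LGD and 785, 688 and 437 CPM in LGL (log2 fold change 1.63 ± 0.43, adjusted p 0.0474). In MIG1 the replicate 3 library was the highest of its group in both media. HXT1, given above, was the 1 that fell. Of 16 gluconeogenesis genes 10 had positive and 6 negative fold changes, with a median of 0.09, and 3 were called (18.8%), all higher: the regulator gene CAT8 (0.85 ± 0.14), the aldehyde dehydrogenase gene ALD4 (1.20 ± 0.28) and the glycerol-3-phosphate dehydrogenase gene GUT2 (1.27 ± 0.22).

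Of 84 ribosome biogenesis genes 22 were called, all lower, 84 had a negative fold change and the median was -0.90. NSR1, the yeast nucleolin (overlapped by YGR160W), had 631, 637 and 228 CPM in LGD and 119.5, 118 and 152 CPM in LGL (log2 fold change -1.94 ± 0.38, adjusted p 0.0265). NOG1, a GTPase of the large subunit's assembly, had 598, 608 and 235 CPM in LGD and 115, 109 and 182 CPM in LGL (log2 fold change -1.83 ± 0.39, adjusted p 0.0298). UTP18, of the small subunit processome, had 67.6, 70.0 and 41.7 CPM in LGD and 16.4, 17.2 and 25.9 CPM in LGL (log2 fold change -1.59 ± 0.26, adjusted p 0.0198). RSA4, of the large subunit's assembly, had 52.9, 58.5 and 28.9 CPM in LGD and 14.0, 11.6 and 18.0 CPM in LGL (log2 fold change -1.69 ± 0.29, adjusted p 0.0217). Again LGD replicate 3 was far nearer to LGL than the other LGD libraries. The list stood at 0.32, 0.31 and -0.64 in LGD and at -1.06, -1.06 and -0.56 in LGL, so LGL replicate 3 was slightly above LGD replicate 3. Without LGD replicate 3, 76 of the 84 were called, all lower, where that fit called 1068 of all 6226 genes lower. The PAC element GATGAG was found before 79 of the 84 genes, in 18.4% of all windows, in 30% of windows of genes called lower and in 10% of those called higher. NSR1 is shown for its high level (chrVII:807798-807883, minus strand, R64; the complement CTCATC in capitals, 187 bases before the start codon).
NSR1: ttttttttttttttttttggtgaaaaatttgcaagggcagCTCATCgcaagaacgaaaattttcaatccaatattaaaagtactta
Of 135 ribosomal protein genes tested 1 was called, RPS9A, with 125, 122 and 88.4 CPM in LGD against 64.4, 61.7 and 47.5 CPM in LGL (log2 fold change -0.95 ± 0.19, adjusted p 0.0272), whose reads can be shared with its near copy RPS9B. The median of that list was -0.31.

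Heat-shock chaperones and the proteasome had 0 of 26 and 0 of 33 genes called by edgeR. At an unadjusted p under 0.05 there were 3 higher and 1 lower chaperone genes and 10 higher proteasome genes, and with DESeq2's Wald test 3 higher and 1 lower chaperone genes and 1 higher proteasome gene. The chaperone list stood at -0.45, -0.45 and 0.90 in LGD and at 0.01, -0.03 and 1.16 in LGL. Replicate 3 was the highest library of both media in that list. The member with the smallest p was CDC37, a co-chaperone of kinases (0.46 ± 0.16, adjusted p 0.0837). Among the proteasome genes it was RPN10 (0.48 ± 0.17, adjusted p 0.0955), and 33 of 33 had a positive fold change, with a median of 0.36.

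**Figure D2:**
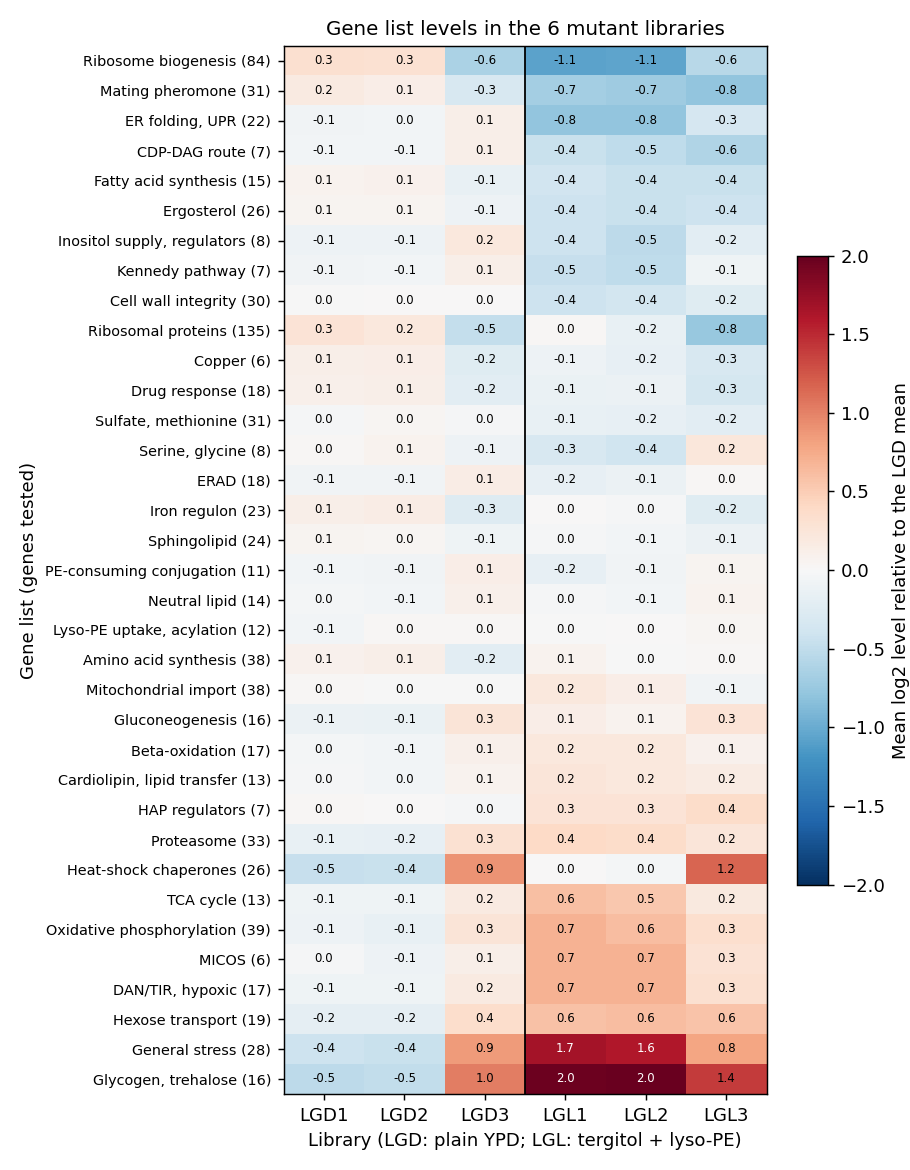
Mean log2 CPM of each gene list in each of the 6 libraries, relative to the mean of the LGD libraries; rows are lists with the number of genes tested, columns are libraries, and the colour and the printed number give the level. Ribosome biogenesis (-1.06 and -0.56 in LGL replicates 1 and 3) is at one end and glycogen and trehalose (1.96 and 1.39) at the other, and LGD replicate 3 (-0.64 and 1.02) is on the LGL side in both.

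Of 31 genes of the pheromone response 12 were called, all lower, with 27 negative fold changes and a median of -0.69. AGA1 (YNR044W, chromosome XIV, 703699-705876), the cell wall anchor of a-agglutinin, had 757, 788 and 369 CPM in LGD and 129.7, 160.1 and 156 CPM in LGL (log2 fold change -2.10 ± 0.30, adjusted p 0.0155). BAR1, the secreted protease that degrades alpha-factor, had 564, 570.0 and 303 CPM in LGD and 196, 203 and 123 CPM in LGL (log2 fold change -1.46 ± 0.30, adjusted p 0.0293). FIG1, a membrane protein of mating cells, had 9.97, 7.83 and 2.42 CPM in LGD and 1.57, 0.687 and 1.17 CPM in LGL (log2 fold change -2.54 ± 0.57, adjusted p 0.0330). LGD replicate 3 was well below the other LGD libraries in these genes and above every LGL library. The a-type marker STE2, the alpha-factor receptor, had 1292, 1318 and 888 CPM in LGD and 673, 673 and 477 CPM in LGL (log2 fold change -0.94 ± 0.23, adjusted p 0.0409). The alpha-type markers STE3 (-1.24 ± 0.29, overlapped by YKL177W) and SAG1 (-0.75 ± 0.15) fell as well. The summed markers of each type, given above, were lower in every LGL library than in any LGD library, and their part in these falls was not tested.
The pheromone response element TGAAACA was found before 17 of the 31 genes and in 7.02% of all windows. Among genes called lower the share was 9.71%, and among genes called higher 5.0%. The stretch before AGA1 (chrXIV:703457-703543, plus strand, R64; the match in capitals, 202 bases before the start codon) is shown for the member with the smallest p.
AGA1: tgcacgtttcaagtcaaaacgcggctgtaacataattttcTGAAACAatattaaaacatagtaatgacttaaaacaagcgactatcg

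Of 18 drug response genes 7 were called, 5 lower and 2 higher. RSB1, a transporter-like protein of the plasma membrane that gives resistance to sphingoid bases, had 94.7, 84.6 and 69.5 CPM in LGD and 289, 285 and 128 CPM in LGL (log2 fold change 1.5 ± 0.31, adjusted p 0.0297). PDR15, an ABC transporter (overlapped by YDR406W-A), had 598, 611 and 887 CPM in LGD and 2378, 2331 and 1062 CPM in LGL (log2 fold change 1.46 ± 0.34, adjusted p 0.0367). PDR12, the weak acid exporter, had 785, 807 and 322 CPM in LGD and 212, 193 and 264 CPM in LGL (log2 fold change -1.52 ± 0.35, adjusted p 0.0355), and PDR18, an ABC transporter of sterol metabolism, lay between 0.0936 and 0.852 CPM.

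Among 31 genes of sulfate and methionine metabolism 7 were called (22.6%, against 13.3% over all genes), 6 lower and 1 higher. SAM2, an S-adenosylmethionine synthetase, had 504, 511 and 533 CPM in LGD and 278, 256 and 258 CPM in LGL (log2 fold change -0.97 ± 0.13, adjusted p 0.0149). SAM3, the S-adenosylmethionine permease, had 413, 416 and 304 CPM in LGD and 212, 166 and 153 CPM in LGL (log2 fold change -1.10 ± 0.19, adjusted p 0.0222). The O-acetylhomoserine sulfhydrylase gene MET17 (-1.04 ± 0.19, overlapped by YLR302C) and the adenylylsulfate kinase gene MET14 (-0.92 ± 0.20) also fell. Of 38 amino acid genes 6 were called (15.8%, close to the 13.3% over all genes), 3 in each direction. ARG1, the argininosuccinate synthetase, had 246, 237 and 222 CPM in LGD and 561, 571 and 423 CPM in LGL (log2 fold change 1.14 ± 0.17, adjusted p 0.0171), and the histidine gene HIS4 changed by 0.77 ± 0.13. ILV5 (-1.30 ± 0.35) and LEU1 (-0.63 ± 0.17), of branched-chain amino acid synthesis, fell. In the iron regulon 1 of 23 genes was called (4.35%), the siderophore transporter gene ENB1 (0.81 ± 0.18). Copper genes and serine and glycine genes had 0 of 6 and 0 of 8 called by edgeR (1 and 1 at an unadjusted p under 0.05, 1 and 1 with DESeq2's Wald test). The auxotrophic markers changed by 0.16 ± 0.13 for HIS3, 0.66 ± 0.21 for LEU2, -0.24 ± 0.16 for TRP1 and 0.10 ± 0.15 for URA3, and none was called.

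The control strain in the same 2 media was used to ask whether the response differed between strains. In a fit of 12 libraries, the difference of the 2 responses was called for 1582 of 6268 genes (25.2%), 766 (12.2%) with a more positive and 816 (13.0%) with a more negative change in the mutant. With replicates 1 and 2 summed it was called for 0 genes (1130 at an unadjusted p under 0.05), with DESeq2's Wald test for 1892. The genes with the smallest p were DUO1, YPL088W, ATG17, KDX1 and KTR2, all more negative in the mutant. KTR2 (YKR061W, chromosome XI, 557677-558954), a mannosyltransferase of the Golgi, changed by -1.46 ± 0.14 in the mutant and by 0.35 ± 0.11 in the control, a difference of -1.80 ± 0.18 (adjusted p 0.000513). KDX1 changed by 0.16 ± 0.09 in the control (difference -2.17 ± 0.21, adjusted p 0.000477). ATG17 changed by 0.28 ± 0.19 in the control (difference -2.27 ± 0.22, adjusted p 0.000477). DUO1, a subunit of the kinetochore ring complex, fell in the mutant (-1.24 ± 0.15) and rose in the control (0.86 ± 0.13). YPL088W, a putative aryl-alcohol dehydrogenase, did the same (-0.96 ± 0.13 and 0.53 ± 0.08).

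In ribosome biogenesis the median fold changes of the 2 strains had opposite signs. In the control 62 of 84 genes were called higher in WTL than in WTD, with a median of 0.91. Over all 6147 genes tested there, 783 were called, 419 higher and 364 lower. In the mutant 22 of the 84 were called lower, with a median of -0.90. The difference was called for 72 of 84, all more negative in the mutant. RSA4 changed by 2.04 ± 0.23 in the control (difference -3.71 ± 0.40, adjusted p 0.000659). General stress genes differed in 17 of 28 and glycogen and trehalose genes in 15 of 16, all more positive in the mutant, and their medians in the control were -0.65 and -0.79. In these lists the libraries of replicate 3 of the mutant stood nearer to each other, as given above. In ER folding the difference was called for 11 of 22, all more negative in the mutant, with a median of 0.14 in the control, and in ergosterol for 15 of 26, 14 more negative. MCD4 changed by 0.72 ± 0.44 in the control, where it was not called, and the difference was -2.91 ± 0.60 (adjusted p 0.00650). It was named for its large fall in the mutant, which is part of that difference. INO1 changed by 0.46 ± 0.40 there, also without a call, with a difference of -2.32 ± 0.48 (adjusted p 0.00658).

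Some falls were present in both strains, and for these the difference was not called. OLE1 changed by -0.80 ± 0.12 in the control (adjusted p 0.0104; difference -0.36 ± 0.22, adjusted p 0.252). FIG1 changed by -2.16 ± 0.30 in the control (adjusted p 0.00836; difference -0.37 ± 0.67, adjusted p 0.721). MET17 and SAM3 changed there by -0.82 ± 0.18 and -0.83 ± 0.19, both called, and CHO1 by -0.59 ± 0.18, not called. OPI3 had -0.86 ± 0.30 in the mutant and -0.91 ± 0.29 in the control, neither called. ALE1 was different. It fell in the control by 0.91 on the log2 scale (adjusted p 0.0147) and changed by 0.09 ± 0.13 in the mutant, and the difference of 1.01 ± 0.21 was called (adjusted p 0.00640).

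**Figure D3:**
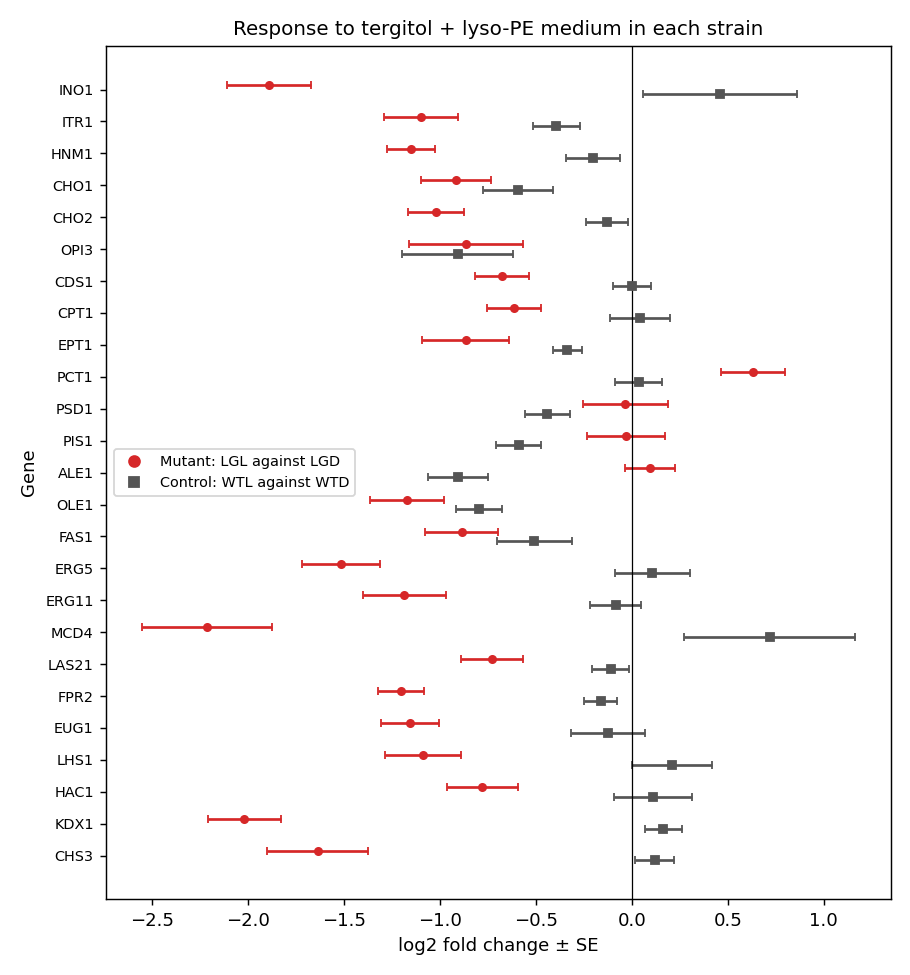
Log2 fold change with its standard error for 25 lipid, ER and cell wall genes in tergitol plus lyso-PE medium against plain YPD, in the mutant (red circles) and in the control (grey squares), 3 libraries per group. For MCD4 the values are -2.21 and 0.72, whereas for OPI3 they are -0.86 and -0.91.

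Ethanolamine is the other precursor of PE in the study, and choline feeds phosphatidylcholine. These comparisons do not use the plain-medium libraries, and the supplements differ in dose and in the detergent. Between LGL and LGE edgeR called 0 of 6208 genes (952 at an unadjusted p under 0.05), and DESeq2's Wald test called 257. Between LGL and LGC it called 92 of 6191 (1.49%), 31 higher (0.501%) and 61 lower (0.985%) in LGL. With replicates 1 and 2 summed that count was 0, and without 1 library it ran from 0 (without LGL replicate 2) to 920 (without LGC replicate 3). Every other single omission gave 684 (without LGL replicate 3), 9, 6 or 2.

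KDX1, ATG17, KTR2, INO1, MCD4 and FPR2, which had fallen against plain medium, were also lower in LGL than in LGC. They were named from fits that use the same LGL libraries. A lower level against LGC is therefore favoured by the choice and is no separate support. The same limit holds for the rise of TIR1 below. KDX1 had 118 ± 19.6 CPM in LGD, 124 ± 9.31 in LGC, 29.1 ± 5.03 in LGL and 39.5 ± 4.28 in LGE (SD, n = 3), with CPM scaled over all 24 libraries. Its log2 fold change was -2.10 ± 0.16 against LGC (adjusted p 0.00765) and -0.44 ± 0.18 against LGE (adjusted p 0.316). The order was therefore LGD and LGC high, LGE and LGL low, with no overlap between the pairs. INO1 showed the same order, with 103 ± 28.3, 114 ± 38.3, 27.8 ± 3.87 and 36.2 ± 10.2 CPM, and -2.03 ± 0.25 against LGC (adjusted p 0.0140). For MCD4 the values were 524 ± 24.1, 442 ± 39.9, 113 ± 58.3 and 156 ± 26.8 CPM, and -1.97 ± 0.34 against LGC (adjusted p 0.0407). Against LGE these genes were not called, with -0.38 ± 0.23 for INO1 and -0.46 ± 0.35 for MCD4. ATG17 and KTR2 changed by -2.22 ± 0.19 and -1.25 ± 0.13 against LGC, and FPR2 by -0.84 ± 0.15 (adjusted p 0.00765, 0.0109 and 0.0422).

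In the control strain KDX1 had 23.2 ± 0.966 CPM in WTD and 25.9 ± 0.496 in WTL, and INO1 had 23.4 ± 4.12 and 32.0 ± 19.7 CPM. LGL was not tested against the control groups. In the comparison of LGD with WTD, which shares the LGD libraries with that of LGL and LGD, KDX1 was higher by 2.32, ATG17 by 1.94, KTR2 by 1.96, INO1 by 2.11, MCD4 by 2.15 and FPR2 by 0.81 on the log2 scale in LGD. Because the libraries are shared, these values are set side by side only. TIR1 was higher in LGL than in LGC by 1.39 ± 0.25 (adjusted p 0.0461), with 25.1 ± 2.29, 22.6 ± 1.07, 59.7 ± 19.7 and 79.2 ± 6.60 CPM in LGD, LGC, LGL and LGE. GLG1 was not called against LGC (1.60 ± 0.49, adjusted p 0.154) nor against LGE (1.33 ± 0.48, adjusted p 0.280). The largest differences from LGC among genes with enough counts were the rises of RSB1 (2.16 ± 0.30) and RTC2 (2.13 ± 0.34) and the falls of YBR200W-A (-3.77 ± 0.41) and the Ty2 element YFL002W-A (-2.42 ± 0.31).

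**Figure D4:**
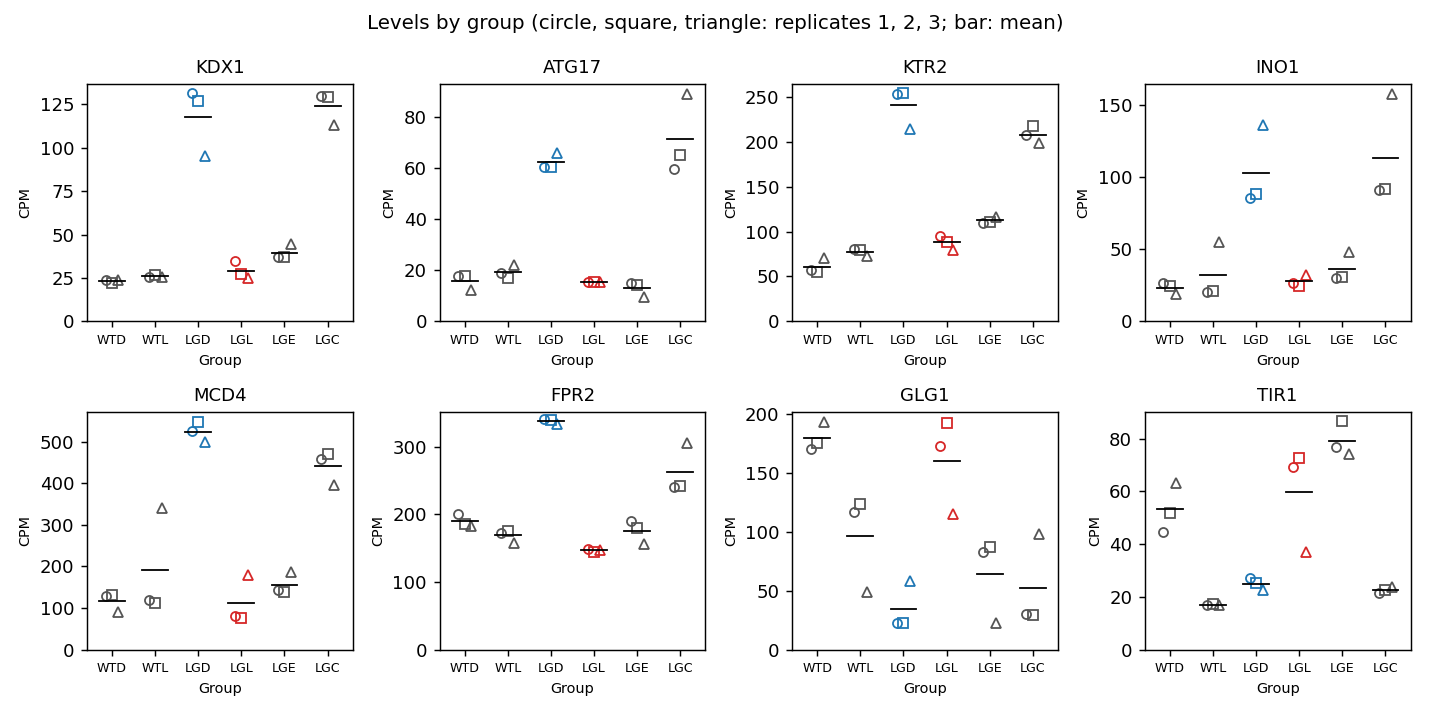
CPM (scaled over all 24 libraries, axes from 0) of 8 genes in 6 groups; circles, squares and triangles are replicates 1, 2 and 3, bars are means, LGL is red and LGD blue. In KDX1, ATG17, KTR2, INO1 and MCD4 the LGD and LGC libraries are high and the LGL and LGE libraries low, for KDX1 at 25.2 to 34.8 CPM in LGL and 37.0 to 44.5 CPM in LGE, while for GLG1 the replicates of a group spread widely.

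The authors' deposited table for LGL against LGD put 1543 of 6357 genes past the 0.05 threshold of its adjusted p-value, of which 747 were higher and 796 lower in LGL.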

How the data were processed

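The series has 24 libraries in 8 groups; per the labels' protocols, RNA was taken by hot phenol extraction and Illumina libraries were prepared. Whole-number read counts, per the file headers, were analysed without any change to the deposited values. The submitters' processing notes name STAR 2.5, HTSeq 0.6.1, DESeq2 and CASAVA, with no role or order. The deposited tables also hold FPKM values, a signal (counts over a size factor of the authors), and the authors' log2 fold changes and p-values, per the file headers. Those fold changes and p-values were used for 1 sentence of counts; FPKM and signal entered no test. Strandedness and genome build are not given in the sources used here, so overlapping genes have uncertain values.

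The table of LGL and LGD lists 6609 genes. It holds no gene with 0 counts in both LGL replicate 1 and LGL replicate 2, a feature found from the values, so genes silent there could not be tested, and 168 genes outside it have LGD counts in other tables. The number of per-sample columns without a sample was 0. Locus tags gave 5888 genes a symbol in RefSeq's table of R64, 5879 with the same start and end; 6019 of 6023 protein-coding genes begin with ATG in R64 at the deposited start, and sequences were read from that genome.

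The main test on counts was the quasi-likelihood F test of edgeR 4.0.16 (R 4.3.3), using TMM scaling, the filterByExpr filter and Benjamini-Hochberg adjustment over all genes tested (threshold 0.05). The fit used the 6 libraries of a comparison, or 12 for the interaction. Standard errors were derived from the F statistic. CPM used TMM-scaled library sizes of the 6 libraries, or of 24 where stated, and list levels used log2(CPM + 0.5). The fits were tested on simulated data. The labels do not say whether replicates came from separate cultures, so p-values measure the spread between these libraries, which may be technical.

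The genes named were the 12 largest rises and falls among called genes whose mean count reached 50 and whose groups were separate, PSD1 and 4 markers, up to 4 called members of each list with the largest change and the member with the smallest p, all tested members of the CDP-DAG, Kennedy, inositol and lyso-PE lists, the 5 interactions with the smallest p, and the 2 largest rises and falls against LGE and LGC. The comparison, members and gene lists were chosen with earlier results of these data known. Of 883 list entries 12 were not tested, among them PSD2, ATG16 and ARG5,6. Alternatives were DESeq2's size factors and its Wald test (version 1.42.0), upper-quartile scaling, no low-count filter, a minimum of 10 counts in every library, all 24 libraries in one fit, the 10 most abundant genes left out, the replicate number as a block, replicates 1 and 2 summed, replicate 3 left out of every group, and each library left out in turn. Deviations of same-numbered LGL and LGD libraries from their group means correlated at 0.02, -0.06 and -0.01, so the numbers were not taken to pair the libraries.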

Additional observations from a re-analysis of the deposited data

Results flagged for a closer look

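The response to tergitol plus lyso-PE medium differed between the strains. The difference of the mutant's and the control's log2 fold changes, tested as an interaction in edgeR with 12 libraries, was called for 1582 genes. A positive value below means a more positive change in the mutant. The 12 largest rises and falls were chosen for their change between LGL and LGD. That change is part of this difference and comes from the same libraries. Large values and calls among these genes are therefore favoured by the choice and are no separate support.

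Of the 12 largest rises the difference was 3.51 for CYC7, 3.45 for UIP4, 3.56 for COX26, 3.12 for IGD1, 2.90 for YJR115W, 3.07 for USV1, 3.62 for TSA2, 3.89 for RTC2, 2.90 for OM45, 3.13 for GLG1, 3.39 for HAB1 and 3.00 for SDP1. These 12 changed in the negative direction in the control. Among the 12 largest falls it was -5.50 for YBR200W-A, -2.38 for EXG1, -2.61 for YBL100W-B, -2.91 for MCD4, -2.40 for ULI1, -3.14 for HXT1, -3.26 for SFG1, -1.49 for AGA1, -2.92 for AQR1, -2.17 for KDX1 and -2.27 for ATG17. FIG1 was the 1 fall whose difference was not called. DUO1 (-2.08), YPL088W (-1.48) and KTR2 (-1.80) were among the 5 smallest p.

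The genes below are those with a called difference in the CDP-DAG, Kennedy, inositol and lyso-PE lists. Over all genes tested 25.2% were called. Other lipid lists, ergosterol among them, also held called differences that are not listed here. The difference was more negative in the mutant for INO1 (-2.32), HNM1 (-0.93), CHO2 (-0.88), ITR1 (-0.69), CDS1 (-0.67), INM1 (-0.65) and CPT1 (-0.64). It was more positive for KIN82 (2.71), ALE1 (1.01), PCT1 (0.61) and PLB2 (0.55). INM1, ALE1 and PLB2 were not called in the mutant alone.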

How the results depend on the processing

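Scaling and filters changed little: the count of genes called between LGL and LGD was 778 to 849 with DESeq2's size factors, upper-quartile scaling, no low-count filter, a minimum of 10 counts in every library, or the 10 most abundant genes left out. DESeq2's Wald test called 1566 and the fit of all 24 libraries 1679, of which 786 were among the 822. With replicates 1 and 2 summed it was 0, and without replicate 3 of every group 4013. The stricter adjusted p of 0.01 left 33, and a minimum of 2-fold change 333. Leaving out 1 library gave 1 to 2064, namely 32 without LGD replicate 1, 33 without LGD replicate 2, 2064 without LGD replicate 3, 1 without LGL replicate 1, 1 without LGL replicate 2 and 1527 without LGL replicate 3. For the interaction, summing gave 0 (1130 at an unadjusted p under 0.05), leaving out replicate 3 of every group 4023, the stricter adjusted p of 0.01 599, the 2-fold minimum 872, and leaving out 1 library 944 to 2207 (968 without LGD replicate 1, 944 without LGD replicate 2 and 1002 without LGL replicate 2). For LGL against LGE, DESeq2's Wald test gave 257, the fit of all 24 libraries 356 and leaving out replicate 3 of every group 2623; leaving out 1 library gave 0 each time. For LGL against LGC the same 3 settings gave 503, 570 and 3732, summing 0, an adjusted p under 0.01 3, and leaving out 1 library 0 to 920. The cause of these changes was not tested, except that summing and omission reduce the number of libraries.

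With the replicate number as a block, 0 genes were called between LGL and LGD (1952 at an unadjusted p under 0.05), 1401 in the interaction, 233 between LGL and LGE and 0 between LGL and LGC. The numbers were not found to pair the libraries, so the block counts replicates that share only a number.

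Of 159 named genes 116 were called between LGL and LGD. Of these, 116 lost the call with the block or with summing, 106 without LGD replicate 1 or without LGD replicate 2, 115 without LGL replicate 1 or without LGL replicate 2, and 9 without LGL replicate 3. Over the alternatives no named gene that was called, in either fit, changed the sign of its fold change. For the 116 called genes the groups did not overlap, so for these the sign could hardly change. The libraries held 17217471 to 20946936 counts each, and YBR200W-A, FIG1 and PDR18 rested on few of them. A chi-square per gene compared the counts of library pairs with counting error alone, for which a value near 1 applies. It was 3.85 between LGD replicates 1 and 2 and 16.2 between LGL replicates 1 and 2. Between replicate 3 and the others of its group it was 299 and 297 in LGD and 265 and 198 in LGL.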
